A study of Caenorhabditis elegans with 15 samples.

Results

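The comparison set fbf-1 3xlnc worms against fbf-1 worms. The fbf-1 3xlnc strain carries mutations in linc-4, linc-7 and linc-29, each of which encodes a long intervening non-coding RNA, together with a mutation in fbf-1, and the fbf-1 strain carries the fbf-1 mutation alone. Libraries entered by the genotype in their labels, 3 for each strain, which makes 6 of the 15 libraries of the study. All 6 came from whole adult Caenorhabditis elegans grown on solid media and are labelled polyA RNA. Their RNA was extracted with TRIzol and a Zymo Direct-zol kit and made into libraries with the KAPA mRNA-Seq kit. Both strains are mutant for fbf-1, so the comparison asks what the linc mutations do in a background that is already mutant for an RNA-binding protein. The sources used here do not name the alleles, the kind of lesion at each gene or the number of independent lines. The other 9 libraries are of WT, fbf-2 and 3xlnc worms, 3 each and labelled total RNA. Of these, WT (the N2 wild type) and 3xlnc (the same 3 linc mutations with fbf-1 intact) serve below to show where the linc effect differed between backgrounds.

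FBF-1 and its close relative FBF-2 are PUF (Pumilio family) proteins that bind short elements in the 3' untranslated regions of mRNAs in the germline and repress them. They keep germline stem cells in the mitotic region of the gonad by holding down mRNAs for meiotic entry, and they also act on mRNAs of the sperm and oocyte fate decision. Long intervening non-coding RNAs are transcribed apart from protein-coding genes, and what most of them do in the worm is not known. A whole adult hermaphrodite holds germline, stored sperm, embryos, intestine, muscle, hypodermis and neurons, so with bulk RNA fewer cells of a type and less RNA per cell cannot be told apart.

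The libraries held 21731471 to 38453738 counts in fbf-1 libraries and 28476560 to 30152040 in fbf-1 3xlnc, and of 46904 gene identifiers 14104 had enough counts to be tested. Defining genes of adult tissues were present. The germline genes gld-1 and glh-1 were at 1102 ± 7.20 and 556 ± 2.49 CPM (counts scaled to the library size, mean ± SD, n = 3) in fbf-1, the body wall myosin gene unc-54 at 2465 ± 32.8, the adult cuticle collagen gene col-19 at 1384 ± 81.0, the synaptic gene rab-3 at 5.28 ± 0.586 and ges-1, a gut esterase gene, at 31.2 ± 0.0707. Library 1 of fbf-1 3xlnc stood apart. Its log2 CPM correlated at 0.9864 and 0.9863 with libraries 2 and 3 of its group, which correlated with each other at 0.9954, while the fbf-1 libraries correlated at 0.9930 to 0.9938. Results that rest on it are therefore given with and without it. Ribosomal RNA genes took 2.02, 4.14 and 2.103% of counts in fbf-1 3xlnc against 1.00, 0.485 and 0.219% in fbf-1, with no overlap. The fbf-1 3xlnc library names carry a lane tag and the fbf-1 names carry none, so sequencing run and genotype cannot be told apart. Whether the 3 libraries of a strain were grown as separate cultures is not in the labels, so the p-values reflect library-to-library spread, which may be technical only.

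All 3 targeted linc genes had 0 counts in every fbf-1 3xlnc library. Levels of linc-7 (chromosome X, 16002599 to 16003728 of WBcel235, plus strand) were 39.7, 37.2 and 35.4 CPM in the 3 fbf-1 libraries. Those of linc-4 (chromosome II, 6268939 to 6269516, plus strand) were 2.33, 2.58 and 2.76 CPM. Those of linc-29 (chromosome IV, 6354024 to 6357243, plus strand) were 1.11, 1.61 and 1.72 CPM. Against a floor of 3 counts over the group, the fbf-1 3xlnc level was at least 1080.4-fold lower for linc-7, 75.1-fold for linc-4 and 43.8-fold for linc-29. The fbf-1 transcript itself did not pass the test between the strains, with 8.15, 8.37 and 7.80 CPM in fbf-1 against 8.25, 8.57 and 8.42 in fbf-1 3xlnc (adjusted p = 0.627), against 37.8 ± 2.22 in WT. The fbf-2 transcript was at 28.8, 28.02 and 31.3 CPM in fbf-1 against 32.8, 30.8 and 34.0 in fbf-1 3xlnc, where the groups overlap (log2 0.15, adjusted p = 0.137). It passed the test in the fit without fbf-1 library 3 (adjusted p = 0.0470). Reads from fbf-1 and fbf-2 may have been shared, because the sequences are close and the sources used here do not tell how such reads were counted.

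A neighbour of linc-4 rose steeply. It was F13H8.8, a protein-coding gene on the minus strand of chromosome II (6265609 to 6268083). Its start, at the higher coordinate on that strand, lies 855 bases from linc-4. F13H8.8 had 2.37, 1.89 and 1.95 CPM in the fbf-1 libraries against 64.1, 62.4 and 64.6 in the fbf-1 3xlnc libraries. Every fbf-1 3xlnc library was far above every fbf-1 library, and the 3 within each group lay close together. The log2 fold change was 4.95 (SE 0.0711, adjusted p = 1.71e-09 by edgeR's quasi-likelihood test with Benjamini-Hochberg adjustment, as for every adjusted p here). On the other side of linc-4, at 847 bases, F13H8.2 did not pass, with 118, 114.9 and 116 CPM in fbf-1 against 110.4, 107 and 113 in fbf-1 3xlnc (adjusted p = 0.275). The gene C09G1.4, whose minus-strand body covers linc-7, was at 4.40, 3.73 and 4.13 CPM against 6.58, 4.74 and 5.37 and missed the threshold (log2 0.45, adjusted p = 0.0645). Because the sources used here do not tell the strand setting of the counting, reads of C09G1.4 and linc-7 could not be separated with certainty. The nearest tested protein-coding gene beyond linc-7, VB0395L.1, lies 9333 bases away and had a log2 of 0.47 (adjusted p = 0.0845). The genes flanking linc-29, Y73B6BL.289 and Y73B6BL.47, had too few counts to be tested.

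**Figure D1:**
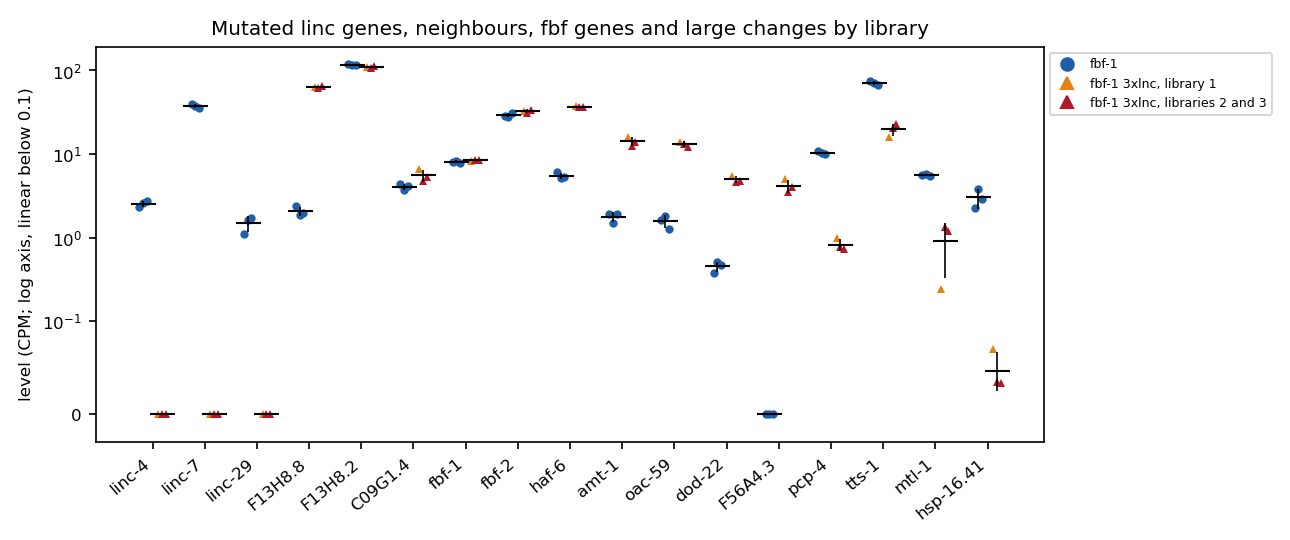
Level in CPM (log axis, linear below 0.1) of the mutated linc genes, their neighbours, fbf-1, fbf-2 and genes with large changes, 1 point per library; horizontal and vertical bars are the mean and SD of 3 libraries. The 3 linc genes are at 0 in fbf-1 3xlnc, F13H8.8 stands far higher there than in fbf-1, and F13H8.2 and fbf-1 are close between the strains.

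Over all genes, 1330 of 14104 were higher in fbf-1 3xlnc (9.43%) and 1197 were lower (8.49%) at an adjusted p under 0.05, so 17.9% passed in either direction. The rises were larger than the falls. The median size among higher genes was 0.52 on the log2 scale, and 365 of them exceeded 1. Among lower genes the median size was 0.27, and 139 exceeded 1. DESeq2 called 1239 and 1024 genes, and limma-voom 1244 and 1172. The CPM of the groups did not overlap for 5483 genes (38.9%). Counts of calls depended on single libraries. Without fbf-1 library 1, 2 or 3 they were 642, 786 and 755 higher and 498, 736 and 672 lower. Without fbf-1 3xlnc library 1 they were 1356 (9.51%) and 1364 (9.57%) of 14255 genes, and without library 2 or 3 they were 1062 and 1086 higher and 707 and 719 lower. The part of the ribosomal RNA share in single calls was not tested, but with ribosomal RNA genes left out the counts were 1327 and 1210.

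**Figure D2:**
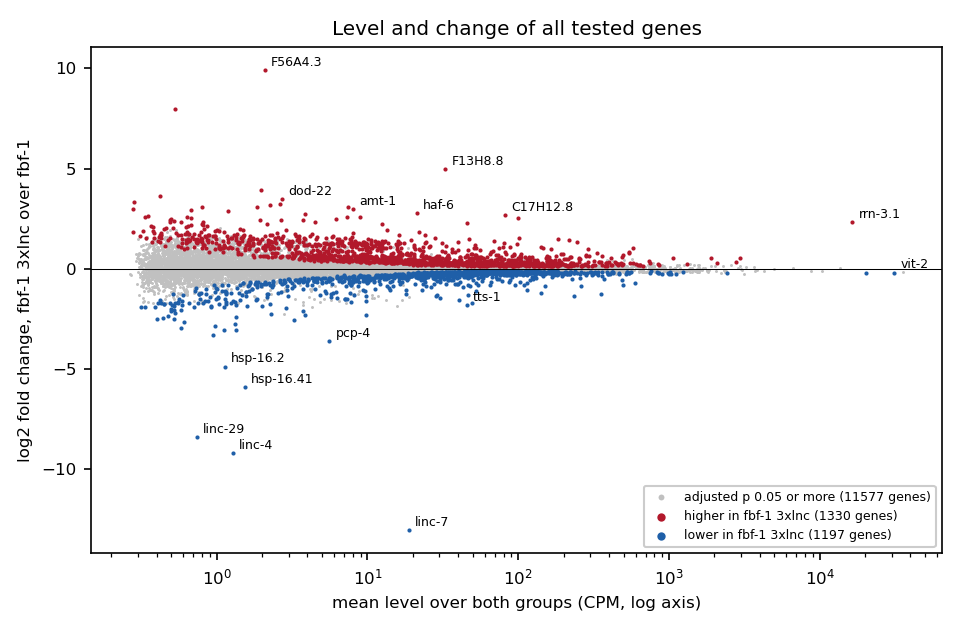
Mean CPM over both groups (log axis) against log2 fold change for each of the 14104 genes tested; red and blue mark the 1330 higher and 1197 lower genes. Large falls of the linc genes and of hsp-16 genes lie at low levels, and the fitted values of genes at 0 in a group depend on the prior count, so they mark direction only.

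Among genes with a mean of 50 or more counts and no overlap, the 10 largest rises were led by F56A4.3, a protein-coding gene on chromosome V (2453414 to 2456147). It had 0 counts in all fbf-1 libraries and 4.97, 3.55 and 4.01 CPM in fbf-1 3xlnc, which is at least 120.1-fold higher. The next after F13H8.8 was B0024.4, at 0.268, 0.322 and 0.156 CPM in fbf-1 against 6.12, 2.32 and 2.65 in fbf-1 3xlnc (log2 3.95). Library 1 of fbf-1 3xlnc held more than libraries 2 and 3 together, and without it the log2 was 3.40 (adjusted p = 7.88e-06). The gene dod-22 (its name stands for downstream of the FOXO factor DAF-16) rose from 0.383, 0.506 and 0.468 to 5.53, 4.64 and 4.78 CPM, with all fbf-1 3xlnc libraries near each other (log2 3.46, SE 0.183, adjusted p = 9.37e-06).

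The remaining genes of that ranking included transporters and an enzyme homologue, and are given here out of order. The ABC transporter gene haf-6 was at 6.04, 5.15 and 5.28 CPM in fbf-1 against 37.8, 36.5 and 36.8 in fbf-1 3xlnc. Its libraries hardly varied within either group (log2 2.76, SE 0.0730, adjusted p = 1.37e-07). The ammonium transporter gene amt-1 rose from 1.91, 1.52 and 1.92 to 16.16, 12.64 and 14.03 CPM (log2 2.99, adjusted p = 5.32e-06). The gene oac-59, an O-acyltransferase homologue, rose from 1.61, 1.84 and 1.27 to 14.1, 13.4 and 12.1 CPM (log2 3.102, adjusted p = 3.87e-06). C24B5.4 rose from 0.612, 0.460 and 0.468 to 5.14, 4.25 and 4.91 CPM (log2 3.22). For these genes every fbf-1 3xlnc library lay well above every fbf-1 library. C09B9.7 rose from 0.383, 0.598 and 0.234 to 6.05, 1.93 and 1.89 CPM, where library 1 held more than libraries 2 and 3 together, and its log2 of 3.099 became 2.34 without library 1. The ribosomal RNA gene rrn-1.2 rose from 0.650, 0.598 and 0.182 to 3.57, 5.62 and 2.89 CPM (log2 3.18), beside the higher ribosomal RNA share of these libraries.

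By the same rule the largest fall was that of pcp-4, which encodes a prolyl carboxypeptidase-like protein. It went from 10.8, 10.2 and 10.1 CPM in fbf-1 to 0.979, 0.773 and 0.730 in fbf-1 3xlnc, with tight and separate groups (log2 -3.63, SE 0.143, adjusted p = 1.96e-06). The metallothionein gene mtl-1 fell from 5.59, 5.84 and 5.46 to 0.245, 1.33 and 1.19 CPM (log2 -2.58, adjusted p = 0.00297), with its lowest value in library 1. The same library was lowest for dod-3, which fell from 5.70, 6.12 and 7.49 to 0.595, 1.65 and 1.66 CPM (log2 -2.29), and for the nematode-specific peptide gene nspe-1, which fell from 5.66, 5.80 and 6.74 to 0.630, 1.58 and 1.96 (log2 -2.11). In all 3 the fall held without it, with log2 values of -2.13, -1.96 and -1.77. The long non-coding RNA tts-1 fell from 75.5, 71.4 and 67.3 to 16.1, 20.4 and 22.7 CPM (log2 -1.84, SE 0.102, adjusted p = 1.22e-05), and without library 1 the log2 was -1.70.

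The remaining falls among the 10 were of Y48G1BL.5, a pseudogene (3.79, 3.73 and 3.82 to 1.08, 0.492 and 0.763 CPM, log2 -2.26), of the carboxylesterase-domain gene cest-1 (2.87, 4.37 and 3.25 to 0.455, 1.26 and 1.26 CPM, log2 -1.79), and of E01G4.6, pqn-32 and F56D6.9. E01G4.6 was at 13.4, 23.4 and 12.4 CPM in fbf-1 against 7.73, 0.878 and 1.19 in fbf-1 3xlnc. Here library 1 was far above libraries 2 and 3, so the log2 of -2.31 became -3.92 without it. The gene pqn-32, for a glutamine- and asparagine-rich protein, had the same shape, with 4.21, 6.396 and 3.12 CPM against 2.34, 0.632 and 0.464, and its log2 went from -1.97 to -2.99. F56D6.9 was at 2.30, 3.04 and 4.13 CPM against 0.245, 1.19 and 1.16 (log2 -1.86). Calls of these last 3 genes were fragile. Without fbf-1 library 1, 2 or 3 the adjusted p of E01G4.6 was 0.0911, 0.122 and 0.0806, that of pqn-32 was 0.0848, 0.103 and 0.0542, and that of F56D6.9 was 0.0507, 0.0627 and 0.1001. Without fbf-1 3xlnc library 2 or 3 the adjusted p of E01G4.6 was 0.0752 and 0.0781, and that of pqn-32 was 0.0806 and 0.0606.

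In CPM, where long and abundant transcripts weigh most, the largest increase was in the ribosomal RNA gene rrn-3.1, from 9917, 4739.8 and 2131 to 20082, 40828 and 20863 CPM (adjusted p = 0.0146), a call lost without fbf-1 library 2 (adjusted p = 0.0647). The aspartyl protease gene asp-1 rose from 1476, 1474 and 1689 to 2409, 2184 and 2173 CPM (log2 0.56, adjusted p = 0.00170). Cuticle collagen genes col-124 and col-93 had log2 values of 0.53 and 0.29, and unc-54 one of 0.33. These calls were lost without fbf-1 library 1 (adjusted p = 0.0552, 0.0554 and 0.118), the col-124 call also without library 3, the col-93 call without library 2, and the unc-54 call without either. The largest decreases were in the yolk protein genes vit-2 and vit-5. For vit-2 the libraries held 32055, 33186 and 34930.3 CPM in fbf-1 against 28618, 28849.7 and 29079 in fbf-1 3xlnc (log2 -0.20, adjusted p = 0.0483). The call for vit-2 and that for vit-5 (log2 -0.21, adjusted p = 0.0405) were lost without fbf-1 library 1 or 2 and without any single fbf-1 3xlnc library. Next came far-2, for a fatty acid and retinol binding protein (2542, 2653 and 2609.9 to 2234, 2186 and 2248 CPM, log2 -0.21), col-95 (728, 709 and 804 to 279, 530.0 and 537, log2 -0.72) and ZC373.2. The col-95 call was lost without fbf-1 library 1, 2 or 3, and the far-2 call without fbf-1 3xlnc library 2 or 3. ZC373.2 had tight groups, at 494, 497 and 499.7 CPM against 189, 209 and 226 (log2 -1.24, adjusted p = 9.15e-06).

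Messenger RNAs known as FBF targets had log2 values from -0.38 to 0.096. Of 28 such genes tested, 2 fell (7.14%, near the 8.49% of all genes) and the other 26 did not pass. The median log2 was -0.047 beside 0.0028 over all genes. A missed threshold does not show that levels were alike. The 2 that fell were fog-1 and fog-3, which promote sperm fate in the hermaphrodite germline. For fog-1, a CPEB-related RNA-binding protein gene, the libraries held 36.1, 32.99 and 33.5 CPM in fbf-1 against 25.3, 28.2 and 29.3 in fbf-1 3xlnc, without overlap (log2 -0.30, SE 0.0676, adjusted p = 0.0189). For fog-3, a Tob family gene, they held 7.42, 7.55 and 6.42 against 5.49, 4.88 and 5.84 CPM (log2 -0.38, SE 0.114, adjusted p = 0.0483). Both calls were fragile. That of fog-1 was lost without fbf-1 library 1 or 3 (adjusted p = 0.0826 and 0.0641), and that of fog-3 without any single library but fbf-1 3xlnc library 1, with adjusted p from 0.0679 to 0.137. The targets gld-1, a translational repressor, and mex-3, another RNA-binding protein gene, had log2 values of -0.084 and -0.077 (adjusted p = 0.179 and 0.211). Of 1850 tested genes that the authors flagged as FBF-2-bound, 92 rose (4.97%) and 229 fell (12.4%), against 9.43 and 8.49% of all genes, with a median log2 of -0.036. Of 2682 flagged germline-enriched, 188 rose (7.01%) and 325 fell (12.1%), with a median of -0.030.

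Few genes of the stem cell pool and the cell cycle passed the test. Of 18 germline stem cell and Notch pathway genes, gld-2 passed, beside 17.9% of all genes. It encodes a cytoplasmic poly(A) polymerase and was at 278, 291 and 262 CPM in fbf-1 against 310.3, 299 and 307 (log2 0.16, adjusted p = 0.0262), a call lost without fbf-1 library 1 or 3 or fbf-1 3xlnc library 2 or 3. Of 39 mitotic and DNA replication genes, orc-5, an origin recognition subunit gene, passed (log2 -0.14, adjusted p = 0.0409), and it did not pass when any single library was left out. Among 23 sex determination genes, 2 rose (8.70%) and 3 fell (13.04%), near the shares of all genes. The clearest was tra-3, a calpain protease gene that promotes female development, at 69.6, 72.8 and 63.999 CPM in fbf-1 against 93.2, 94.4 and 92.4 in fbf-1 3xlnc. All fbf-1 3xlnc libraries were higher (log2 0.46, SE 0.0425, adjusted p = 0.000177). The RNA helicase gene laf-1 rose by a log2 of 0.18 (adjusted p = 0.0147), a call lost without fbf-1 library 1 or fbf-1 3xlnc library 2. The genes that fell were fog-1, fog-3 and fog-2 (log2 -0.22). None of the 3 passed without fbf-1 library 1 or 3, and 1 of them passed without fbf-1 library 2 or without fbf-1 3xlnc library 3. Of 11 PUF family genes, puf-10, annotated as a pseudogene, fell (log2 -0.28, adjusted p = 0.0192). So did puf-9, known for its action in the soma (log2 -0.18, adjusted p = 0.0483). Neither PUF call held without fbf-1 library 1 or without fbf-1 3xlnc library 2, and 1 of them held without fbf-1 library 2 or 3 or fbf-1 3xlnc library 3. The PUF gene that rose without fbf-1 library 3 was fbf-2, as given above (adjusted p = 0.0470).

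Few meiotic and oocyte genes passed the test beside 17.9% of all genes, and most did so by small amounts. Among 14 genes of the synaptonemal complex and chromosome axis, syp-1, of the central region, fell from 54.6, 56.1 and 51.9 to 47.4, 42.9 and 44.9 CPM (log2 -0.25, adjusted p = 0.00509). Among 30 genes of meiotic breaks, pairing and crossover, 3 fell. They were spo-11, whose product cuts DNA to start crossovers (log2 -0.27, adjusted p = 0.0147), the RING finger gene zhp-1 (log2 -0.38) and the break repair gene rad-50 (log2 -0.13). A single one of these calls held without fbf-1 library 1 or fbf-1 3xlnc library 3, and all were lost without fbf-1 library 2. Of 37 oocyte and eggshell genes, egg-5, needed at egg activation, fell from 162, 161 and 177 to 123, 131 and 129 CPM (log2 -0.37, adjusted p = 0.00417), and the chondroitin proteoglycan gene cpg-9 rose (log2 0.44). The yolk receptor gene rme-2 and the oocyte maturation gene oma-1 were at log2 0.0086 and -0.013, with overlapping groups. The cpg-9 call was lost without fbf-1 library 1 or 3 (adjusted p = 0.0583 and 0.0735), and without fbf-1 3xlnc library 1 the list had 4 rises and 2 falls. Early zygotic genes, switched on in embryos, had 2 rises and 2 falls among 43 tested. There were 5 rises without fbf-1 3xlnc library 1, 1 without fbf-1 library 1 or 2 or fbf-1 3xlnc library 2, and 0 without fbf-1 library 3. A single fall was left without fbf-1 library 2 or without fbf-1 3xlnc library 2 or 3. The largest change was a fall of sdz-6 from 2.33, 2.30 and 1.90 to 0.944, 0.808 and 1.09 CPM (log2 -1.17, adjusted p = 0.00557).

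Argonaute genes of the small RNA pathways had more rises than falls. Of 21 tested, 6 rose (28.6%) and 1 fell (4.76%), against 9.43 and 8.49% of all genes, with a median log2 of 0.17. The Piwi-type Argonaute gene prg-2 rose from 158, 167 and 167 to 204, 206 and 211 CPM, every library of the linc mutant being higher (log2 0.34, SE 0.0435, adjusted p = 0.00108). The WAGO-class gene ppw-1 was at 78.96, 76.4 and 77.1 CPM against 88.98, 89.8 and 88.98 (log2 0.22, adjusted p = 0.00673). The others that rose were csr-1, ppw-2, sago-2 and alg-2, at log2 0.22, 0.27, 0.63 and 0.18. The gene wago-2 fell from 89.3, 91.3 and 81.4 to 74.2, 68.1 and 73.6 CPM (log2 -0.26, adjusted p = 0.00457). In the annotation used here, prg-2 and wago-2 are pseudogenes. Without fbf-1 library 1 the number of rising Argonaute genes was 3. Among 20 germ granule genes, mut-16, the scaffold of mutator foci, rose (log2 0.17, adjusted p = 0.0169), and the call was lost without fbf-1 library 1 or 2 or fbf-1 3xlnc library 3.

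Major sperm protein genes rose together, and their level was highest in library 1. Of 28 tested major sperm protein genes, whose products drive sperm crawling and signal to the oocyte, 27 rose (96.4%, against 9.43% of all genes). Their median log2 was 1.32. Their summed level was 184, 155 and 110.3 CPM in the fbf-1 libraries against 586, 249 and 259 in the fbf-1 3xlnc libraries. All 3 fbf-1 3xlnc libraries were above all fbf-1 libraries, but library 1 held more than libraries 2 and 3 together, and the fbf-1 libraries themselves spread over a wide range. Without library 1, 27 of 28 still passed and the median log2 was 0.81. The count fell to 6, 5 and 3 without fbf-1 library 1, 2 or 3, and DESeq2 and limma-voom called 22 and 19. Lowest in adjusted p were msp-19 (2.03, 1.61 and 0.962 CPM in fbf-1 against 11.9, 5.06 and 5.57 in fbf-1 3xlnc, log2 2.33, adjusted p = 0.00372), msp-79 (0.383, 0.460 and 0.390 against 1.57, 1.05 and 1.16, log2 1.63) and msp-63 (0.268, 0.322 and 0.260 against 2.099, 0.913 and 0.962, log2 2.23). These genes are near-identical copies, so how reads were split among them is uncertain and they are not separate witnesses.

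Other sperm function genes gave 14 rises among 46 tested (30.4%, against 9.43% of all genes), with a median log2 of 1.10 and of 0.59 without library 1, where 16 of 44 rose and 1 fell. Their summed level was 311, 294 and 247 CPM in fbf-1 against 619, 336 and 353 in fbf-1 3xlnc. Here libraries 2 and 3 were only a little above the highest fbf-1 library. The nematode-specific peptide family D genes nspd-10 and nspd-3 rose with log2 values of 1.49 and 1.47 (adjusted p = 0.00819 and 0.0200), and ssp-9, a sperm-specific family gene, with 1.58. The defining sperm phosphatase gene gsp-4 rose as well (5.01, 5.94 and 3.72 CPM against 17.4, 7.41 and 7.16, log2 1.15, adjusted p = 0.0437). Its relative gsp-3 and the paternal-effect gene spe-11 missed the threshold (adjusted p = 0.0632 and 0.0571). The count of risers was 3, 3 and 2 without fbf-1 library 1, 2 or 3, and 8 with limma-voom.

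**Figure D3:**
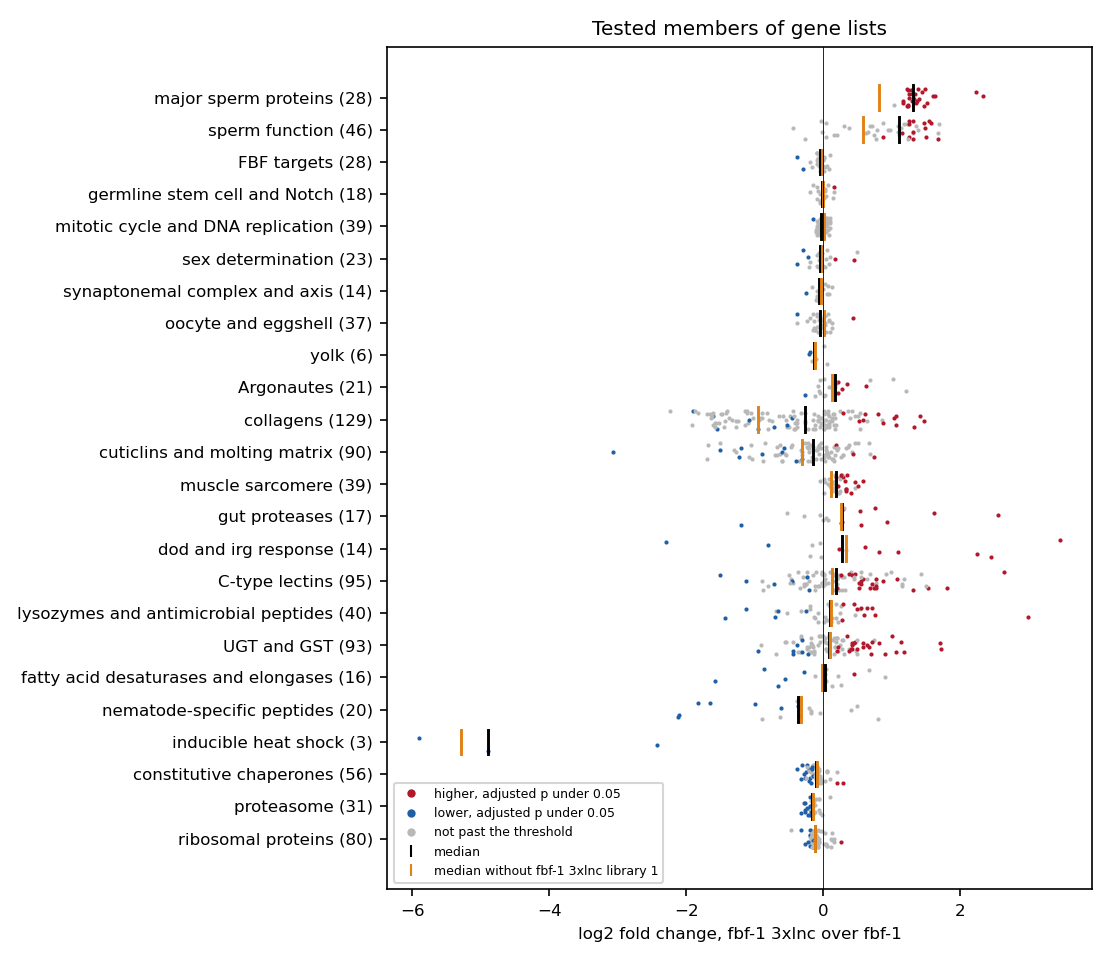
Log2 fold change, fbf-1 3xlnc over fbf-1, of every tested member of 24 gene lists (number tested in parentheses); red and blue points passed an adjusted p under 0.05, black ticks are medians and orange ticks medians without fbf-1 3xlnc library 1. Sperm lists lie right of 0, inducible heat shock genes far left, germline lists near 0, and the collagen median moves from -0.27 to -0.95 without library 1.

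Cuticle genes depended on which fbf-1 3xlnc library was read. Of 129 tested collagen genes, 12 rose (9.30%) and 8 fell (6.20%), near the shares of all genes, with a median log2 of -0.27. Without library 1, 13 rose and 69 fell among 131, and the median was -0.95. The genes dpy-13 and sqt-1, collagens that shape the body and are named here after their values were seen, show the split. For dpy-13 the fbf-1 libraries held 18.2, 33.4 and 22.6 CPM and the fbf-1 3xlnc libraries 16.3, 1.90 and 1.82, so that library 1 was close to the fbf-1 range while libraries 2 and 3 were far below it (log2 -1.88, adjusted p = 0.0841). For sqt-1 they held 6.12, 8.19 and 6.09 against 4.62, 0.421 and 0.332 CPM, with the same pattern. The adult marker col-19 was at 1426, 1436 and 1291 against 1793, 1394 and 1432 CPM with overlap (adjusted p = 0.202), and the summed collagen level was 39606, 39536 and 39076 CPM in fbf-1 against 45879.7, 39470.2 and 40646.

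Collagens with the smallest adjusted p went both ways. For col-179 the level rose from 254, 253 and 226 to 483, 387 and 398 CPM (log2 0.81, SE 0.0770, adjusted p = 0.000210). The level of col-94 rose from 54.1, 52.7 and 44.2 to 87.4, 66.9 and 68.1 CPM (log2 0.58). That of col-90 fell from 1.87, 1.61 and 1.85 to 0.560, 0.351 and 0.497 CPM (log2 -1.90, adjusted p = 0.00137). Each of the 3 kept groups apart in every library. Of 90 cuticlin and molting matrix genes, 3 rose (3.33%) and 9 fell (10%), against 9.43 and 8.49% of all genes. Without library 1 the counts were 3 and 27 of 92. The patched-related gene ptr-21 rose from 36.6, 36.8 and 38.7 to 65.2, 60.3 and 60.4 CPM (log2 0.74, adjusted p = 3.99e-05). The cuticlin gene cut-2 fell from 7.001, 7.78 and 7.44 to 3.88, 2.39 and 3.28 CPM (log2 -1.204), and ptr-13 fell by a smaller amount (log2 -0.31). Without fbf-1 library 1, 2 or 3, the numbers of collagens that rose were 3, 4 and 5, and those that fell were 5, 4 and 5. Without fbf-1 3xlnc library 3, 5 collagens fell, and limma-voom called 27 lower. A single cuticlin or matrix gene rose without fbf-1 library 1 or 3. The number of falling ones was 3 and 5 without fbf-1 library 1 or 2, and 4 and 5 without fbf-1 3xlnc library 2 or 3.

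Of 39 muscle sarcomere and attachment genes, 14 rose (35.9%, against 9.43% of all genes) and 25 did not pass. Of the 39, 38 had a log2 above 0, beside 7132 of 14104 over all genes, and the median was 0.19. Their summed level was 13471, 13693 and 13461 CPM in fbf-1 against 17287, 14252 and 14519.5 in fbf-1 3xlnc, with library 1 well above the others. Without it, 15 rose and the median was 0.11. The pharyngeal myosin gene myo-1 was at 101, 92.9 and 92.8 CPM against 174, 123.5 and 127 (log2 0.58, adjusted p = 0.00970). The titin gene ttn-1 and the attachment gene unc-97 both had a log2 of 0.33. The count of rising muscle genes was 1, 5 and 2 without fbf-1 library 1, 2 or 3. Among 19 neuronal genes, ric-4, for a synaptic SNARE protein, rose (log2 0.44), unc-17, the vesicular acetylcholine transporter, rose (log2 0.59) and snb-1, synaptobrevin, fell (log2 -0.15). All 3 calls were lost without fbf-1 library 1, 2 or 3. The somatic gonad list of 14 genes had 1 rise, that of the troponin T gene tnt-4 (log2 0.47, adjusted p = 0.0468), also lost without any single fbf-1 library.

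Of 7 listed inducible heat shock genes, 3 had enough counts to be tested and all 3 fell. The small heat shock gene hsp-16.41 was at 2.30, 3.87 and 2.91 CPM in the fbf-1 libraries against 0.06995, 0.0351 and 0.0332 in fbf-1 3xlnc, a fall to a handful of reads per library (log2 -5.89, SE 0.384, adjusted p = 2.65e-05). Its near copy hsp-16.2 went from 1.99, 2.39 and 2.18 to 0.105, 0.105 and 0 CPM (log2 -4.89, adjusted p = 0.000222). The cytosolic hsp-70 gene went from 2.49, 2.53 and 1.82 to 0.455, 0.527 and 0.265 CPM (log2 -2.42, adjusted p = 0.000769). No library of one group entered the range of the other for any of them, and reads may be shared among hsp-16 copies. Chaperones made without stress fell more often than they rose. Of 56 such genes, 2 rose and 14 fell (25%, against 8.49% of all genes), with a median log2 of -0.10. The J-domain genes dnj-19, dnj-13 and dnj-17 fell with log2 values of -0.38, -0.23 and -0.28. For dnj-19 the libraries held 401, 422 and 401 CPM against 306, 309 and 316. The number of chaperones that fell was 3, 6 and 9 without fbf-1 library 1, 2 or 3 and 5 and 6 without fbf-1 3xlnc library 2 or 3. No chaperone rose without fbf-1 library 1, and 1 rose without fbf-1 library 2 or fbf-1 3xlnc library 2 or 3.

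The proteasome, which degrades ubiquitinated proteins, had falls among genes for its lid, core and ATPase subunits. Of 31 subunit genes, 14 fell, 30 had a log2 below 0, and 27 had no overlap between the groups, with a median of -0.17. Their summed level was 7472, 7409 and 7816 CPM in fbf-1 against 6605, 6799 and 6961 in fbf-1 3xlnc, each fbf-1 3xlnc library being below each fbf-1 library. The lid subunit gene rpn-8 was at 234, 230.0 and 234 CPM against 185.8, 191 and 192 (log2 -0.28, SE 0.0420, adjusted p = 0.00268). The core subunit gene pbs-6 and the ATPase gene rpt-6 fell with log2 values of -0.27 and -0.32 (adjusted p = 0.00469 and 0.00582). Without library 1, 14 again passed, and without fbf-1 library 1 or 3 or fbf-1 3xlnc library 2 or 3 the number was 6 or 8. The numbers of proteasome calls are to be read against 8.49% of all genes lower. Over all 14104 genes tested, 38.9% had no overlap between the groups and 7132 had a log2 above 0. Of 80 ribosomal protein genes, 1 rose (1.25%) and 9 fell (11.25%), against 9.43 and 8.49% of all genes. Their median log2 was -0.12, and DESeq2 called 27 lower. The clearest were a fall of rps-28 (log2 -0.33, adjusted p = 0.00332) and a rise of rps-17 (log2 0.26, adjusted p = 0.00551). A single ribosomal protein gene, 1 of the 80, fell without fbf-1 library 1 or without fbf-1 3xlnc library 2 or 3. The falls numbered 14 without fbf-1 3xlnc library 1, and 4 rose without fbf-1 library 3.

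Of 14 tested dod and irg genes, named for regulation by DAF-16 or by infection, 7 rose (50%), 2 fell and 5 did not pass, against 9.43 and 8.49% of all genes. Their summed level was 617, 597 and 596 CPM in fbf-1 against 1071, 994 and 989. The counts hardly moved when any single library was left out (7 or 8 rises and 2 falls). After dod-22, described above, dod-24 rose from 4.59, 4.33 and 4.19 to 23.9, 18.5 and 19.3 CPM (log2 2.25, SE 0.116, adjusted p = 8.99e-06). The abundant infection response gene irg-7 rose from 409, 387 and 393 to 744, 675 and 666 CPM (log2 0.82, adjusted p = 2.64e-05). In all of these the groups stayed apart. The falls were of dod-3 and irg-5 (log2 -0.80).

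Lectins and lysozymes rose more often than they fell. Of 95 C-type lectin genes, which encode carbohydrate-binding proteins, 22 rose (23.2%) and 6 fell (6.32%), against 9.43 and 8.49% of all genes, with a median of 0.19. For clec-63 the level went from 411, 391 and 420.1 to 705, 671 and 685 CPM (log2 0.77, adjusted p = 2.95e-05). For clec-186 it went from 43.4, 39.4 and 38.7 to 66.5, 61.7 and 64.7 (log2 0.68). In the other direction clec-166 fell from 10.9, 10.3 and 10.2 to 3.36, 3.58 and 3.98 CPM (log2 -1.51, adjusted p = 4.41e-05). Of 40 lysozyme and antimicrobial peptide genes, 10 rose (25%) and 5 fell. The lysozyme genes lys-2 and lys-1 rose, lys-2 from 72.8, 70.2 and 68.8 to 116, 114.8 and 123 CPM (log2 0.75, adjusted p = 1.06e-05) and lys-1 with a log2 of 0.64. The saposin-like gene spp-17 rose from 154, 142 and 145 to 235.01, 231 and 253 CPM (log2 0.72). The falls included lys-7 and spp-1 (log2 -0.70 and -0.65), named after their values were seen. Among 13 pals genes, pals-23 rose (log2 0.58, adjusted p = 0.00775), and 2 rose without fbf-1 library 2. The number of rising lectins was 13 without fbf-1 library 1, and that of falling lectins 3 without fbf-1 library 1 or 3 and 10 without fbf-1 3xlnc library 1. Falling lysozyme and peptide genes numbered 2 without fbf-1 library 1 or 3, and 3 without fbf-1 library 2 or fbf-1 3xlnc library 2.

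Of 17 gut protease genes, which digest food proteins, 9 rose (52.9%), 1 fell (5.88%) and 7 did not pass. Over all genes 9.43% rose and 8.49% fell. The median log2 of the protease list was 0.28. Its summed level was 5951, 5900.5 and 6559 CPM in fbf-1 against 7488, 7275 and 7351 in fbf-1 3xlnc. The aspartyl protease gene asp-17 had the largest change, from 2.56, 2.76 and 2.50 to 15.98, 14.01 and 15.5 CPM (log2 2.56, SE 0.101, adjusted p = 1.96e-06). Its relative asp-14 rose from 47.8, 50.1 and 48.7 to 81.3, 78.7 and 84.9 CPM (log2 0.75, adjusted p = 1.06e-05). The cathepsin B-like gene cpr-3 rose from 2.95, 3.22 and 2.63 to 11.37, 8.11 and 7.30 CPM (log2 1.63), while cpr-1 fell (log2 -1.19). Of 15 intestinal marker genes, some of them shared with the protease and lipid lists, 7 rose (46.7%), 3 fell (20%) and 5 did not pass, and the counts were 7 and 3 without any one library. The lipid-binding protein gene lbp-6 rose from 103, 97.1 and 96.7 to 158, 139.8 and 144 CPM (log2 0.58, adjusted p = 0.000106), and the intermediate filament gene ifb-2 had a log2 of 0.66. The gut esterase gene ges-1 did not pass (31.3, 31.2 and 31.2 CPM against 28.3, 28.02 and 30.9, adjusted p = 0.264).

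**Figure D4:**
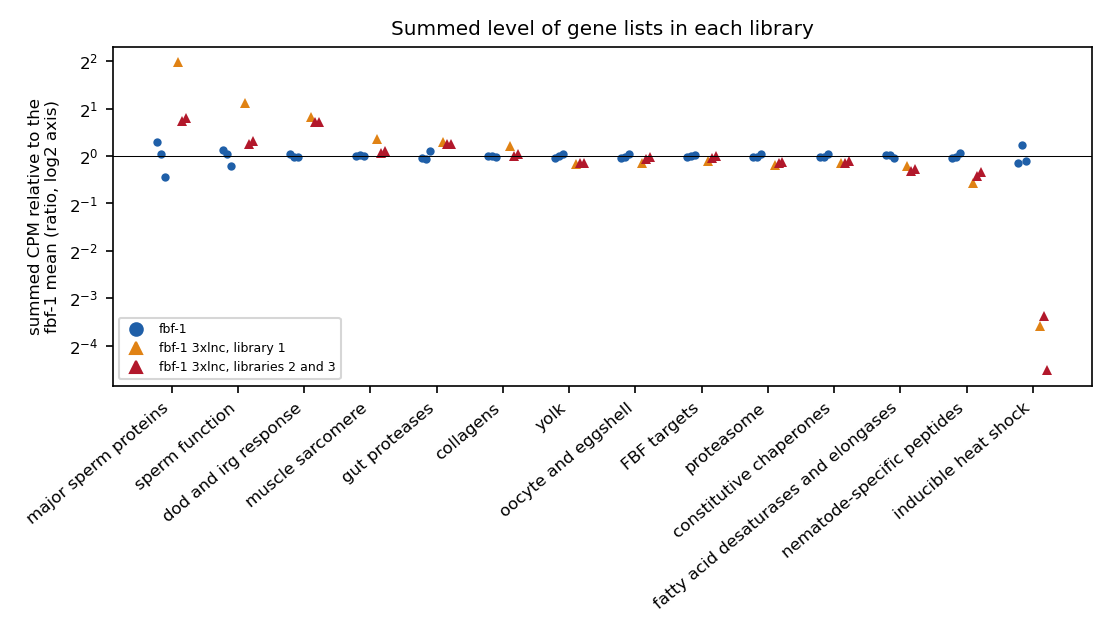
Summed CPM of 14 gene lists in each library, divided by the mean of the 3 fbf-1 libraries (log2 axis); circles are fbf-1 and triangles fbf-1 3xlnc, library 1 in orange. Library 1 stands above libraries 2 and 3 for sperm, muscle and collagen lists. All 3 libraries lie on the same side of fbf-1 for every list except collagens, oocyte and eggshell, and FBF targets.

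Detoxification genes differed by family. Of 93 UDP-glucuronosyltransferase (UGT) and glutathione S-transferase (GST) genes, which attach sugar or glutathione to small molecules, 25 rose (26.9%) and 7 fell (7.53%). The shares of all genes were 9.43 and 8.49%. The gene ugt-62 rose from 63.7, 58.3 and 51.6 to 122, 117 and 120.1 CPM (log2 1.07, SE 0.0594, adjusted p = 1.22e-05). For ugt-1 the level went from 7.54, 7.91 and 7.44 to 29.7, 20.6 and 23.4 CPM (log2 1.70). For gst-13 it went from 25.4, 23.3 and 23.1 to 43.6, 39.9 and 42.1 (log2 0.82, adjusted p = 2.59e-05). Each fbf-1 3xlnc library was above each fbf-1 library for these genes. Among 53 cytochrome P450 genes, which oxidise lipids and foreign compounds, 8 rose and 8 fell (15.1% each, against 9.43 and 8.49% of all genes). The risers with the smallest adjusted p were cyp-33E1 (2.14, 1.84 and 2.03 to 7.35, 6.53 and 5.90 CPM, log2 1.72), cyp-13A2 (log2 0.77) and cyp-25A3 (log2 0.74). The falls, among them cyp-35B1 (log2 -0.999, chosen after its value was seen), numbered 2 without fbf-1 library 1 and 4 without fbf-1 library 2 or 3 or fbf-1 3xlnc library 2. Falling UGT and GST genes numbered 2 to 4 without any of these libraries or fbf-1 3xlnc library 3.

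Genes for metal and oxidative stress had more falls than rises. Of 19 tested, 1 rose (5.26%) and 6 fell (31.6%), against 9.43 and 8.49% of all genes. Besides mtl-1, the metallothionein gene mtl-2 fell from 105, 99.7 and 106 to 75.1, 76.8 and 78.9 CPM (log2 -0.42, adjusted p = 0.000613). The ferritin gene ftn-2, for iron storage, rose from 116, 114 and 114 to 159, 150.2 and 152 CPM (log2 0.44, adjusted p = 0.000127). The superoxide dismutase gene sod-3 fell (log2 -0.63). The number of falls was 2 without fbf-1 library 1, and 3 without fbf-1 library 2 or 3 or fbf-1 3xlnc library 2.

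Fatty acid desaturases put double bonds into acyl chains, and 5 of their genes fell. The palmitate desaturase gene fat-5 fell from 59.3, 57.1 and 65.3 to 16.6, 21.03 and 22.7 CPM, each fbf-1 3xlnc library being far below each fbf-1 library (log2 -1.58, SE 0.110, adjusted p = 3.76e-05). The stearate desaturase gene fat-6 fell from 344, 344 and 324 to 198, 178 and 177 CPM (log2 -0.86, SE 0.0489, adjusted p = 1.28e-05). The gene fat-2, whose product turns oleic into linoleic acid, fell from 589, 603 and 547 to 415, 376 and 382 CPM (log2 -0.55, adjusted p = 0.000106). The other desaturase genes that fell were fat-3 and fat-1, with log2 values of -0.67 and -0.28. In all, 5 of 16 desaturase and elongase genes fell (31.25%, against 8.49% of all genes) and 1 rose, the elongase gene elo-2 (log2 0.45). Between 5 and 6 fell when any library was left out. The list's median was 0.031.

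Genes that activate and burn fatty acids went up more often than down, with 12 rises (20%) and 4 falls (6.67%) among 60. The shares of all genes were 9.43% higher and 8.49% lower, so the falls were near that share. The acyl-CoA oxidase gene acox-1.5, of peroxisomal chain shortening, rose from 10.6, 10.9 and 9.49 to 26.5, 23.9 and 23.8 CPM (log2 1.28, SE 0.0757, adjusted p = 1.67e-05). The acyl-CoA synthetase gene acs-14 rose (log2 0.59, adjusted p = 0.000111). The hydroxyacyl-CoA dehydrogenase gene hacd-1 fell from 107, 106 and 105 to 68.8, 64.9 and 65.6 CPM (log2 -0.66, adjusted p = 1.28e-05). Groups did not overlap for any of the 3. Lysosomal lipases, which free fatty acids from stored fat in fasting, were split. The gene lipl-1 fell from 14.7, 14.5 and 14.9 to 3.25, 5.34 and 5.80 CPM (log2 -1.60, adjusted p = 0.000611) and lipl-3 fell (log2 -1.25), whereas lipl-5 rose from 198, 169 and 170.3 to 272, 260.3 and 271 CPM (log2 0.59, adjusted p = 0.000283). Of 6 tested lipase genes 1 rose (16.7%) and 3 fell (50%), against 9.43 and 8.49% of all genes.

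Further families are given by counts, to be read against 9.43% of all genes higher and 8.49% lower. Nuclear hormone receptor genes, a large family of ligand-regulated transcription factors in this worm, had 20 rises (11.3%, near the 9.43% of all genes) and 3 falls among 177, led by nhr-55 (log2 1.0002, adjusted p = 0.00161). The rises numbered 9, 11 and 8 without fbf-1 library 1, 2 or 3 and 11 without fbf-1 3xlnc library 3, and the falls 0 without any fbf-1 library or without fbf-1 3xlnc library 2. The O-acyltransferase homologue genes had 7 rises among 20, with oac-20 next to oac-59 (5.97, 5.84 and 5.36 to 16.96, 14.9 and 14.4 CPM, log2 1.45, adjusted p = 3.24e-05). Nematode-specific peptide genes of the families other than D had 9 falls among 20, among them nspc-16 (log2 -1.65) and nspe-7 (log2 -2.12), and 5 and 3 falls without fbf-1 library 2 or 3 and 5 without fbf-1 3xlnc library 2. Of 4 pud genes 2 fell. They were pud-3 (635, 641 and 619 to 253, 397 and 416 CPM, log2 -0.81) and pud-4 (log2 -1.05), both lowest in library 1. F-box genes, whose products select proteins for ubiquitination, had 6 rises and 11 falls among 242, and fbxa-182 fell from 7.46, 7.55 and 6.50 to 3.39, 2.91 and 3.58 CPM (log2 -1.10). Leaving out any fbf-1 library, or fbf-1 3xlnc library 2 or 3, brought the rises among F-box genes to between 1 and 3, and their falls numbered 4 and 6 without fbf-1 library 1 or 3 and 7 without fbf-1 3xlnc library 3. Genes with MATH or BTB domains had 8 of each among 75 (10.7%), near the shares of all genes. Their rises numbered 3 without any fbf-1 library or fbf-1 3xlnc library 3 and 5 without fbf-1 3xlnc library 2. Their falls numbered 5 without fbf-1 library 3 or fbf-1 3xlnc library 3 and 4 without fbf-1 3xlnc library 2.

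Neuropeptide and insulin genes had 4 rises (3.54%) and 5 falls (4.42%) among 113, against 9.43 and 8.49% of all genes. The gene nlp-24 rose from 36.99, 37.3 and 29.8 to 75.6, 65.9 and 68.7 CPM (log2 1.04, adjusted p = 4.41e-05), and nlp-59 fell from 11.97, 9.85 and 10.3 to 5.74, 4.11 and 4.08 (log2 -1.19). The falls numbered 1 or 2 without any library other than fbf-1 3xlnc library 1. Of 25 core histone genes 3 fell, among them his-35 (log2 -0.36). The linker histone gene hil-2 rose (log2 0.24, adjusted p = 0.00329). Of 12 mitochondrially encoded genes 4 rose, led by nduo-3, a subunit gene of the NADH dehydrogenase (12.2, 13.9 and 12.1 to 20.7, 18.4 and 22.2 CPM, log2 0.70), and 7 rose and 2 fell without fbf-1 library 3, which had the lowest mitochondrial share (0.660% of counts against 0.937 to 1.01% in the other 5). By chromosome, 223 of 2021 tested X-linked genes rose (11.03%) and 87 fell (4.305%), against 9.43 and 8.49% of all genes. On chromosome III 153 of 2226 rose and 216 fell, and on chromosome I 172 of 2317 rose and 223 fell. Without library 1, 146 of 2043 X-linked genes fell.

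The linc effect was next compared with that of the same 3 mutations in worms with fbf-1 intact, 3xlnc over WT. The comparisons share no library, but they differ in labelled RNA type, which cannot be told apart from the fbf-1 genotype. In a joint fit of the 12 libraries 1780 of 14772 genes were higher (12%) and 1394 lower (9.44%) in 3xlnc than in WT. Of the genes called higher in fbf-1 3xlnc, 936 of 1329 also had a log2 above 0 in 3xlnc over WT (70.4%). Of those called lower, 831 of 1196 had one below 0 (69.5%). Over all genes the median log2 of 3xlnc over WT was -0.020. By calls, 425 and 201 passed in the same direction in both backgrounds, and 52 and 126 passed in opposite directions. The interaction contrast, which tests the difference of the effects, passed above 0 for 375 of 14772 genes (2.54%) and below 0 for 541 (3.66%). These numbers depended on single libraries. Without WT library 1 they were 1570 and 1193, without WT library 3 they were 254 and 345, and without 3xlnc library 1 or 3, any fbf-1 library or fbf-1 3xlnc library 2 or 3 they were 201 to 243 and 339 to 379.

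**Figure D5:**
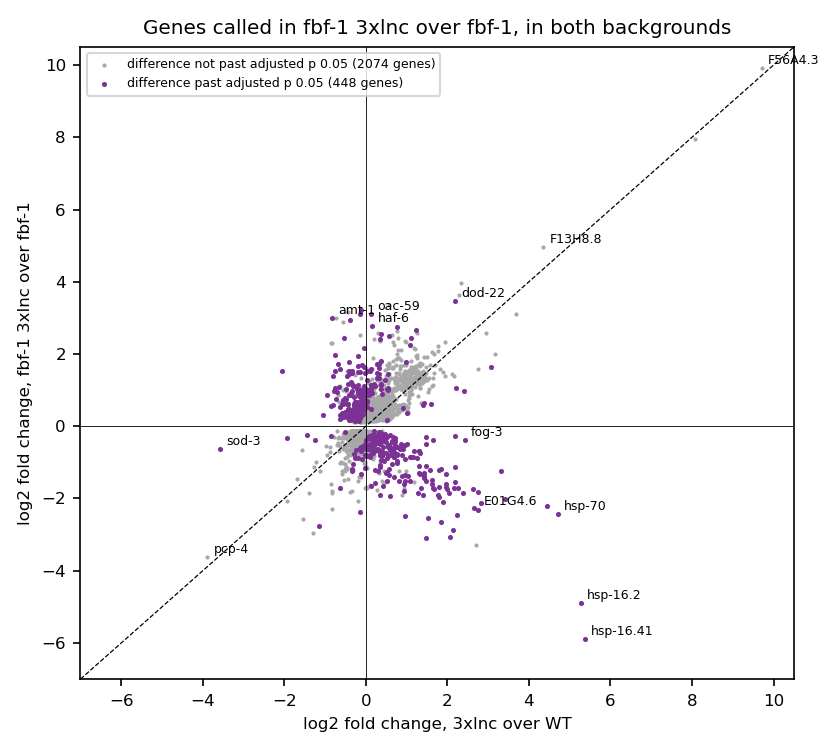
Log2 fold change of 3xlnc over WT (x axis) against that of fbf-1 3xlnc over fbf-1 (y axis) for genes called in the latter comparison and fitted in both; purple marks genes whose difference passed an adjusted p under 0.05, 204 of those called higher and 244 of those called lower, and the dashed line marks equal change. F13H8.8, F56A4.3 and pcp-4 lie near the line, while heat shock genes lie far below it and haf-6, amt-1 and oac-59 above it.

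Several of the largest changes had the same direction in both backgrounds. F13H8.8 rose by a log2 of 4.95 in fbf-1 and 4.35 in WT, where it went from 1.68 ± 0.192 to 36.3 ± 2.01 CPM (interaction adjusted p = 0.0599). F56A4.3 had 0 counts in WT as in fbf-1 and stood at 4.44 ± 0.908 CPM in 3xlnc. The gene pcp-4 had a log2 of -3.89 in 3xlnc over WT, from 16.9 ± 3.42 to 1.19 ± 0.136 CPM (interaction adjusted p = 0.673). A missed threshold does not show that effects were equal. Major sperm protein genes had a median log2 of 0.97 in 3xlnc over WT, beside 1.32 here.

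Heat shock genes went opposite ways. hsp-16.41 was at 0.242 ± 0.0772 CPM in WT and 9.96 ± 6.08 in 3xlnc (log2 5.38, adjusted p = 2.44e-05), and the difference between backgrounds was -11.25 on the log2 scale (adjusted p = 4.86e-06). For hsp-70 the levels were 0.888 ± 0.213 CPM in WT and 24.38 ± 12.49 in 3xlnc (interaction -7.13, adjusted p = 8.93e-06). Its fbf-1 level was above that of WT and its fbf-1 3xlnc level below it. The SDs in 3xlnc were wide. Collagens differed between backgrounds as well. In 3xlnc over WT their median log2 was 1.38. In fbf-1 3xlnc over fbf-1, where 129 were tested, it was -0.27, and -0.95 without fbf-1 3xlnc library 1. The interaction passed below 0 for 41 collagens and above 0 for 3, against 3.66 and 2.54% of all genes. These interaction counts include library 1, on which the collagen falls in fbf-1 3xlnc depended.

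For another set of genes the fbf-1 group stood apart from the other 3 in level. The groups with and without the fbf-1 mutation differ in labelled RNA type, so levels across them are a description. For haf-6 the mean was 37.4 ± 2.64 CPM in WT, 43.4 ± 1.197 in 3xlnc and 37.05 ± 0.676 in fbf-1 3xlnc, against 5.49 ± 0.482 in fbf-1 (interaction 2.61, adjusted p = 1.32e-07). The gene oac-59 was at 11.7 ± 1.18, 13.2 ± 1.99 and 13.2 ± 0.993 CPM in those 3 groups against 1.57 ± 0.285 in fbf-1 (interaction 2.98). For fat-5 the means were 14.8 ± 2.43, 17.8 ± 3.08 and 20.1 ± 3.17 CPM against 60.6 ± 4.27 in fbf-1 (interaction -1.81, adjusted p = 0.000199). In each, fbf-1 3xlnc lay near WT and fbf-1 alone lay away from it. The fall of fat-6 and fat-2 in fbf-1 3xlnc also met rises in 3xlnc over WT (log2 0.70 and 0.54), with interactions of -1.55 and -1.09. Not all genes followed that pattern. For amt-1 the mean was 3.99 ± 1.24 CPM in WT and 2.41 ± 0.488 in 3xlnc, both well below the 14.3 ± 1.77 of fbf-1 3xlnc (interaction 3.81). For fog-3 it was 0.560 ± 0.386 in WT and 2.72 ± 0.458 in 3xlnc, both below either fbf-1 strain (interaction -2.81, adjusted p = 0.000355).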

How the data were processed

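RNA-seq gene counts were deposited by the authors as whole-number counts per gene, unscaled per the file headers, with 2 columns of flags that mark genes as germline-enriched or as FBF-2-bound. The submitters' processing notes name STAR 2.7.9a, featureCounts (Subread 2.0.1), DESeq2 1.34.0 and WBcel235; the sources used here do not tell the strand and multi-mapping settings. Another 18 normalised columns were not used. The fbf-1 3xlnc columns match their group but not single samples, so their numbers only name libraries. Counts of 6 libraries were filtered (filterByExpr), TMM-scaled and tested with edgeR 4.0.16 (quasi-likelihood, Benjamini-Hochberg, threshold 0.05) in R 4.3.3. A fit of 12 libraries gave the interaction contrast. Alternatives used DESeq2 1.42.0, limma-voom 3.58.1, other scalings, filters and thresholds, each library left out and replicate blocks; the fit without ribosomal RNA genes was chosen after seeing the data. Scripts were tested on simulated data. Positions came from annotation release 115, which held 46817 of 46904 identifiers. Total counts limit precision, and p-values cover the spread between 3 libraries a group. Named genes were the targeted genes and neighbours, the 10 largest rises and falls (mean of 50 counts or more, no overlap), the 5 largest CPM differences each way and 3 called members of each list with the smallest adjusted p; further genes were chosen after their values were seen. Members and lists were chosen with earlier results of these data known.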

Additional observations from a re-analysis of the deposited data

Results flagged for a closer look

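For some of the genes named in the text, the effect of the linc mutations in the fbf-1 background differed from their effect in WT, by the interaction contrast of edgeR over 12 libraries (adjusted p under 0.05 over 14772 genes, 2.54% of them above 0 and 3.66% below). Each value is a log2 difference, the effect in fbf-1 minus the effect in WT. The groups with and without the fbf-1 mutation also differ in labelled RNA type, which cannot be told apart from genotype.

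Among the genes named, the most negative differences were those of heat shock genes, with -11.25 for hsp-16.41, -10.16 for hsp-16.2 and -7.13 for hsp-70, while the chaperone genes dnj-13 and dnj-19 had -0.41 and -0.38. The superoxide dismutase gene sod-3 went the other way, with 2.94. Cuticle genes were also below 0. The values were -5.15 for grl-5, -4.66 for sqt-1, -4.16 for dpy-13, -2.79 for cut-2 and -2.25 for col-90. Among peptide and related genes they were -4.96 for nspe-7, -3.998 for nspe-1, -1.77 for nspc-16, -1.76 for nlp-59 and 0.92 for nlp-24. E01G4.6, Y48G1BL.5, pqn-32 and ZC373.2 had -5.07, -4.91, -3.78 and -0.91.

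In germline and embryo lists the difference was -2.81 for fog-3, 0.80 for tra-3, 0.88 for prg-2, -3.01 for sdz-6, 0.71 for hil-2 and -0.64 for his-35. The early zygotic gene sdz-6 was the exception in its list. There the difference passed below 0 for 1 gene and above 0 for 9, among them vet-6 (0.94). Fatty acid desaturase genes were below 0, at -1.81 for fat-5, -1.55 for fat-6, -1.09 for fat-2, -0.54 for fat-3 and -0.51 for fat-1, and the elongase gene elo-2 was above, at 0.88. The oxidation genes acox-1.5 and hacd-1 had 1.24 and -0.42.

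Of the gut and immune genes named, most lay above 0. The values were 1.32 for dod-17, 1.27 for dod-22, 1.16 for dod-24, 0.80 for F55G11.8, 1.43 for C17H12.8, 1.92 for C10C5.5, 0.77 for pals-23 and 0.66 for clec-186, with -2.03 for clec-166. Protease genes had 2.19 for asp-17, 1.30 for cpr-3 and -0.86 for cpr-1. The detoxification genes named had 1.79 for ugt-1, 0.53 for ugt-62, 1.48 for cyp-13A2, 1.38 for cyp-33E1 and 1.22 for cyp-25A3. Counts over whole lists were mixed. The difference passed above 0 for 3 dod and irg genes and below 0 for 0. Numbers above and below were 4 and 7 for C-type lectins and 1 and 2 for lysozyme and antimicrobial peptide genes. They were 3 and 3 for gut proteases, 4 and 5 for UGT and GST genes and 4 and 4 for cytochrome P450 genes. Among the remaining genes the differences were 3.81 for amt-1, 3.33 for C24B5.4, 2.98 for oac-59, 2.61 for haf-6, 0.89 for oac-20, 1.15 for nhr-55 and -2.42 for fbxa-182.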

How the results depend on the processing

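Counts of higher and lower genes were within 1.5 times the reported ones under other scalings, filters and tools and without ribosomal RNA genes. Leaving out single libraries gave 642 to 1356 higher and 498 to 1364 lower genes. With the spread estimated over 15 libraries the counts were 873 and 475, and at an adjusted p under 0.01 they were 523 and 365. The replicate numbers did not pair the libraries (correlations of deviations of 0.106, -0.149 and 0.267). With a replicate block by column number 1510 genes were higher and 1242 lower, and with the fbf-1 3xlnc numbers 1 and 3 exchanged 580 and 409. DESeq2 called 583 genes with a larger effect in fbf-1 than in WT, and leaving out single libraries gave 201 to 1570 larger and 339 to 1193 smaller effects. Of 145 genes named by the rule, 129 could be fitted under all 16 alternatives and 16 under 15 of them, and 78 and 13 of these stayed on their side of the threshold in each fit. None of the 145 reversed. The gene C09G1.4 passed with the replicate block (adjusted p = 0.0457). Inducible heat shock genes were not testable with a mean of at least 50 counts. The cause of these changes was not tested. Counts per library limit what could be seen for genes of a few CPM.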

Other observations

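Some genes outside the naming rule, chosen after their values were seen, lie close together on a chromosome and rose together. On chromosome IV, 5 genes from F55G11.8 to dod-17 rose, most of them for secreted proteins with CUB-like domains. F55G11.8 was at 3.21, 3.73 and 3.90 CPM in fbf-1 against 12.9, 12.01 and 12.4 in fbf-1 3xlnc (log2 1.79), and dod-17 had a log2 of 2.44. Between them lie dod-22, F55G11.2 (log2 1.92) and F55G11.4 (log2 0.60). C17H12.5, C17H12.6 and C17H12.8 rose with log2 values of 1.52, 2.25 and 2.67, and C10C5.3, C10C5.4 and C10C5.5 with 1.91, 0.89 and 2.50.

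The srbc-15 pseudogene, on chromosome V like F56A4.3, was likewise at 0 counts in every fbf-1 library and had 31, 27 and 35 counts in fbf-1 3xlnc. Both genes were also at 0 in WT. The largest fall in the cuticlin and matrix list was that of grl-5 (log2 -3.07).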
